A study of Mus musculus with 6 samples.

Results

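Vehicle-treated, lineage-depleted bone marrow from Dek -/- mice is described here across genes. It comprises 3 of the 6 RNA libraries in the series, chosen by their titles, and the other 3 libraries, whose cells received DEK, were not used. Marrow came from the femurs of C57BL/6 mice, cells bearing lineage antigens were removed on columns in succession, and stranded libraries were prepared after selection for poly(A) RNA. All libraries of the series carry the same Dek -/- genotype, so no wild-type marrow stands beside them. The labels do not name the vehicle, its dose or the time of exposure, nor the age or sex of the mice or how the Dek allele was made. They also do not say whether the 3 libraries stem from separate mice or from pooled marrow, so the spread reported below is that between these libraries and may be technical.

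Lineage depletion removes marrow cells that carry surface antigens of mature blood cells, and leaves a mixture of stem cells, progenitors and the maturing cells that escape the antibodies. In the neutrophil line of mouse marrow, the genes of the primary (azurophil) granules are switched on first, at the promyelocyte stage, those of the secondary (specific) granules next, and those of the mature cell last. DEK is a chromatin protein that binds DNA and histones, and it can also be released from cells and act on others.

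The libraries held 48867857, 38060873 and 34875736 counts for replicates 1, 2 and 3. A count was present for 16533, 15961 and 16252 genes, and for 17470 of the 24421 genes in any of the 3. Levels are given as CPM, which scales counts to the library total corrected by TMM, or as TPM, which divides by exon length before scaling and so allows genes to be compared with each other. Dek itself had 17.7, 16.9 and 21.8 CPM. The deletion cannot be checked from such a sum over the whole gene, whose exons also overlap those of Kdm1b, because the position of the deleted part is not given in the labels.

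The library labelled replicate 3 stood apart from the other two. Over the 12132 genes whose mean reached 1 CPM, 99.3% were within 2-fold between replicates 1 and 2, against 88.2% between replicates 3 and 1 and 87.8% between replicates 3 and 2. The median absolute difference in log2 CPM was 0.10, 0.33 and 0.33 for these pairs, and Pearson's correlation of log2 CPM across genes was 0.992, 0.946 and 0.942. Genes are not independent replicates, so these correlations describe the pairs and carry no test.

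Replicate 3 was at least 2-fold above both other libraries in 829 genes, which is 6.83% of the genes examined, and at least 2-fold below both in 350, or 2.88%. Replicate 1 was that far above both others in 17 genes (0.140%) and below in 17 (0.140%). Replicate 2 was above in 10 (0.0824%) and below in 33 (0.272%). The counts for gene lists given below are read against these shares. The median over all genes was within 0.03 log2 units of 0 for each pair after TMM scaling. With plain library totals it was -0.08, -0.14 and 0.06 for replicate 3 minus 1, 3 minus 2 and 2 minus 1. Because replicate 3 departs from the rest, values are given library by library, and what holds without it can be read from replicates 1 and 2.

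**Figure D1:**
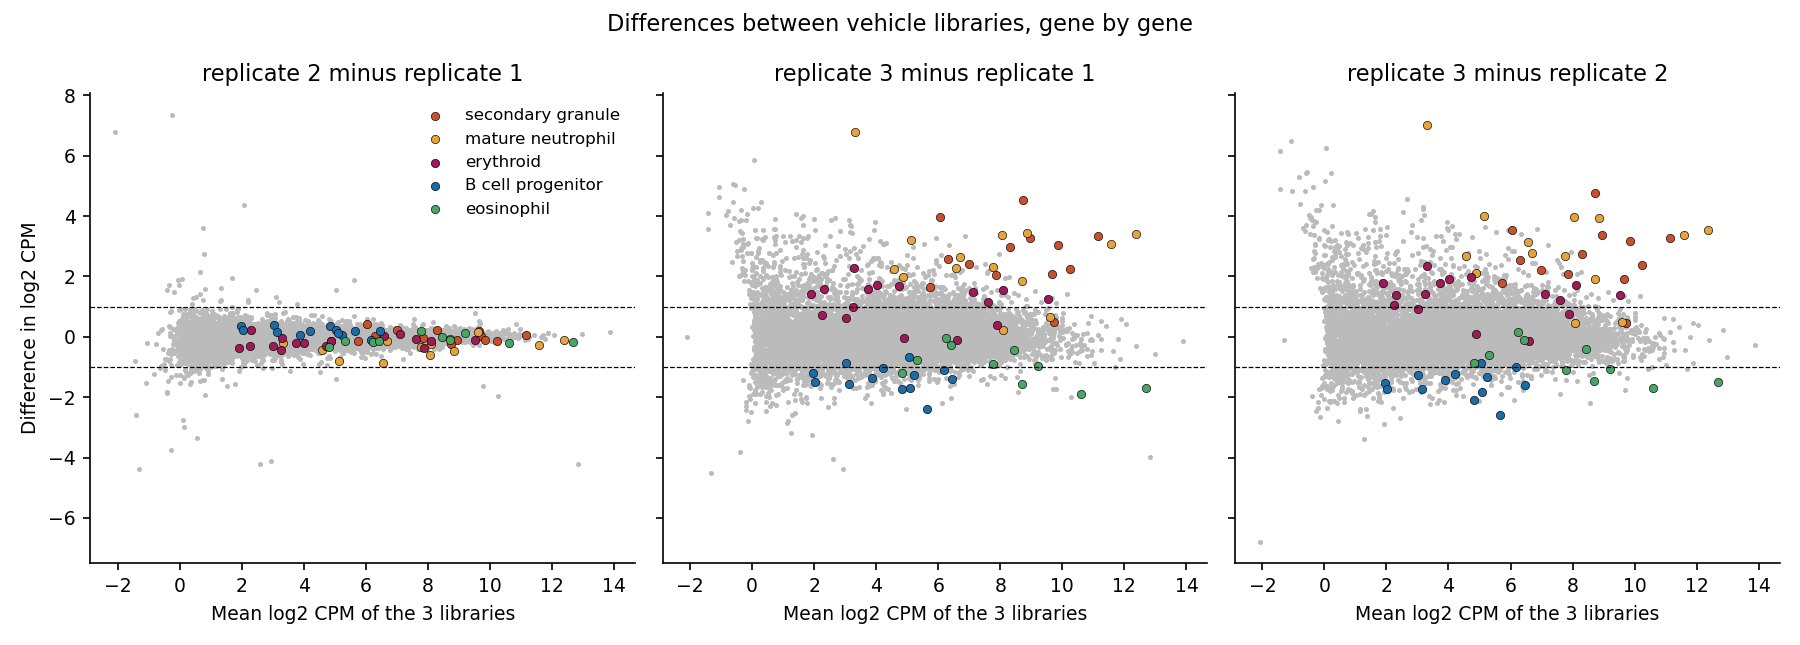
Each grey point is a gene, with the mean log2 CPM of the 3 vehicle libraries on the horizontal axis and the difference in log2 CPM between 2 libraries on the vertical axis. Coloured points are members of 5 marker lists, and dashed lines mark 2-fold. Most secondary granule and mature neutrophil genes lie above the upper line in both comparisons with replicate 3 and between the lines for replicate 2 minus 1.

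Ranked by mean TPM over the 3 libraries, the first 4 genes are known from myeloid cells. In replicate 1 alone the highest gene was Mir6236, described below, with 33419 TPM. Lyz2, the lysozyme of neutrophils, monocytes and macrophages, had 30386, 34470.2 and 23786 TPM in replicates 1, 2 and 3. The highest mean belonged to S100a9, which with S100a8 forms the calcium-binding protein calprotectin of neutrophils. S100a9 had 10111, 9469 and 92166 TPM and S100a8 had 8752, 7332 and 63583 TPM. Both were thus led by replicate 3, and in replicates 1 and 2 they lay well below Lyz2. Prg2, the major basic protein of eosinophil granules, was instead lowest in replicate 3, with 25929, 23344 and 6891 TPM.

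Among the 20 genes with the highest mean TPM, Mpo, Plac8, Ly6c2, Tyrobp, Cd74, Psap, Ngp and Camp are also known from myeloid or antigen-presenting cells. Mpo, the myeloperoxidase of primary granules, had 5046, 4492 and 3516 TPM. Tyrobp, the signalling adaptor of many myeloid receptors, had 5109, 5839.7 and 4516 TPM. Cd74, the invariant chain of MHC class II, had 5524, 5329 and 4475 TPM, a value made uncertain by the exons it shares with Mir5107. These 3 genes differed by less than 2-fold between any libraries. Others of the 20 serve every cell, such as Tmsb4x (thymosin beta, 12213, 12837 and 14092 TPM), B2m (6236, 6538 and 6891 TPM), Actb (3575, 3950.1 and 4572 TPM) and Eef1a1 (5193, 5718 and 2653 TPM). Eef1a1 and Gnb2l1, both of the translation machinery, were lowest in replicate 3, where Gnb2l1 had 1991 TPM against 4279.6 and 4526.

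Of the 20 genes with the highest mean CPM, 14 were also among the 20 with the highest mean TPM. The genes of the first list alone were Eef2, Mpeg1, Fth1, Lcp1, Itm2b and Cybb. Cybb, the catalytic subunit of the phagocyte NADPH oxidase, had 2287, 2122 and 2368 CPM, and Mpeg1, the pore-forming protein of macrophages and related cells, had 3538, 3523 and 2572 CPM. In 7 of the 20 genes by TPM and 6 of the 20 by CPM, 1 library lay at least 2-fold above or below both others.

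By TPM the top of the distribution was narrowest in replicate 3, but by counts it was narrowest in replicate 1. The 10 most abundant genes held 10.8%, 6.69% and 8.89% of counts in replicates 1, 2 and 3. The 10 most abundant genes held 15.8%, 12.4% and 25.2% of all TPM in replicates 1, 2 and 3, and the number of genes that made up the upper 50% of TPM was 374, 410 and 227. TPM values of other genes are diluted by this in replicate 3. Crlf3, for example, had 163, 163 and 163 CPM but 146, 148 and 125 TPM. Differences between libraries are therefore given in CPM below. A mean of at least 1 TPM was reached by 12097 genes, of at least 10 TPM by 8424, of at least 100 TPM by 1701 and of at least 1000 TPM by 100.

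**Figure D2:**
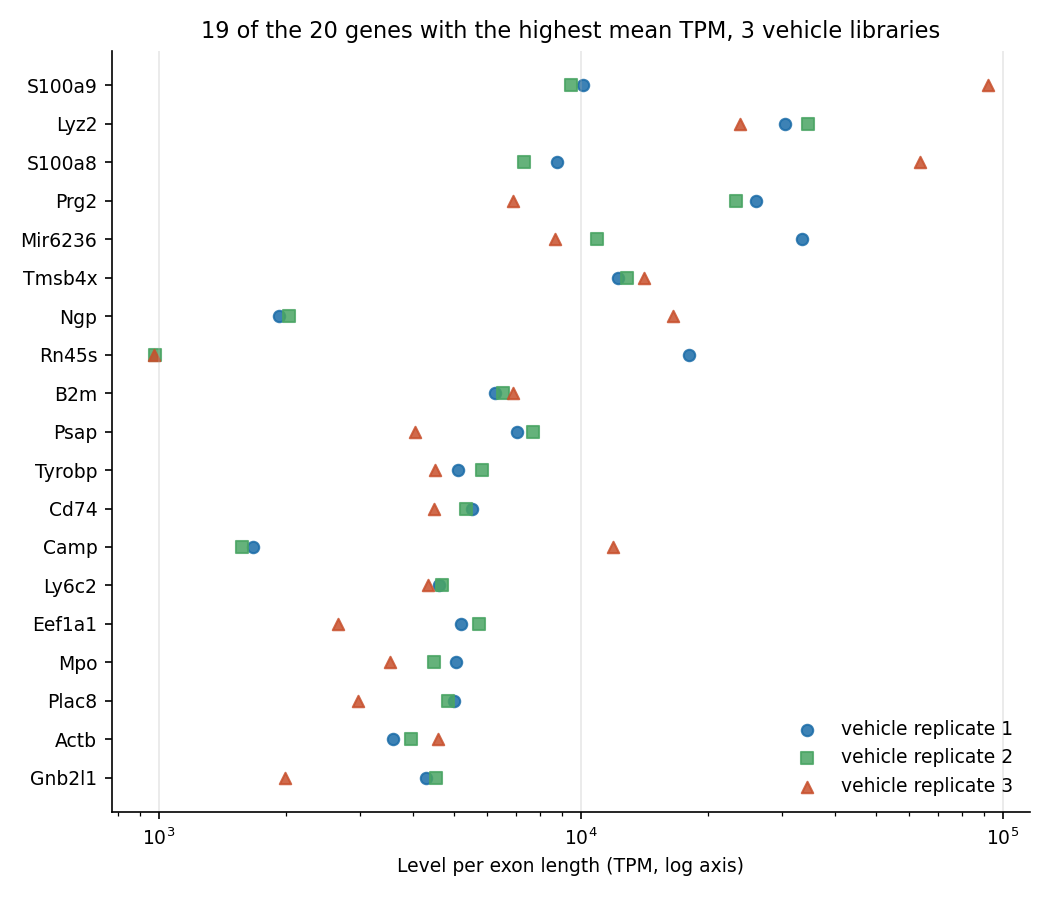
Of the 20 genes with the highest mean TPM, 19 are plotted, from the highest at the top, with TPM on a log axis and 1 symbol per vehicle library. S100a9, S100a8, Ngp and Camp are highest in replicate 3, Prg2 is lowest there, and Rn45s and Mir6236 are highest in replicate 1.

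To describe the lineages that remained after depletion, the share of all counts that fell in 19 lists of cell type markers was taken for each library. In replicates 1 and 2 the largest shares belonged to eosinophil genes (1.49% and 1.40%), monocyte genes (1.23% and 1.38%) and primary granule genes (0.995% and 0.959%). In replicate 3 they belonged to mature neutrophil genes (4.64%) and secondary granule genes (2.86%). Stem and progenitor genes held 0.243%, 0.244% and 0.143%. A share of counts depends on how strongly the marker genes of a cell are transcribed as well as on how many such cells there are. Fewer cells of a type and less RNA per cell cannot be told apart in such bulk libraries. The Wilson 95% interval of each share reached no further than 0.00698 percentage points from it, and covers counting error only.

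**Figure D3:**
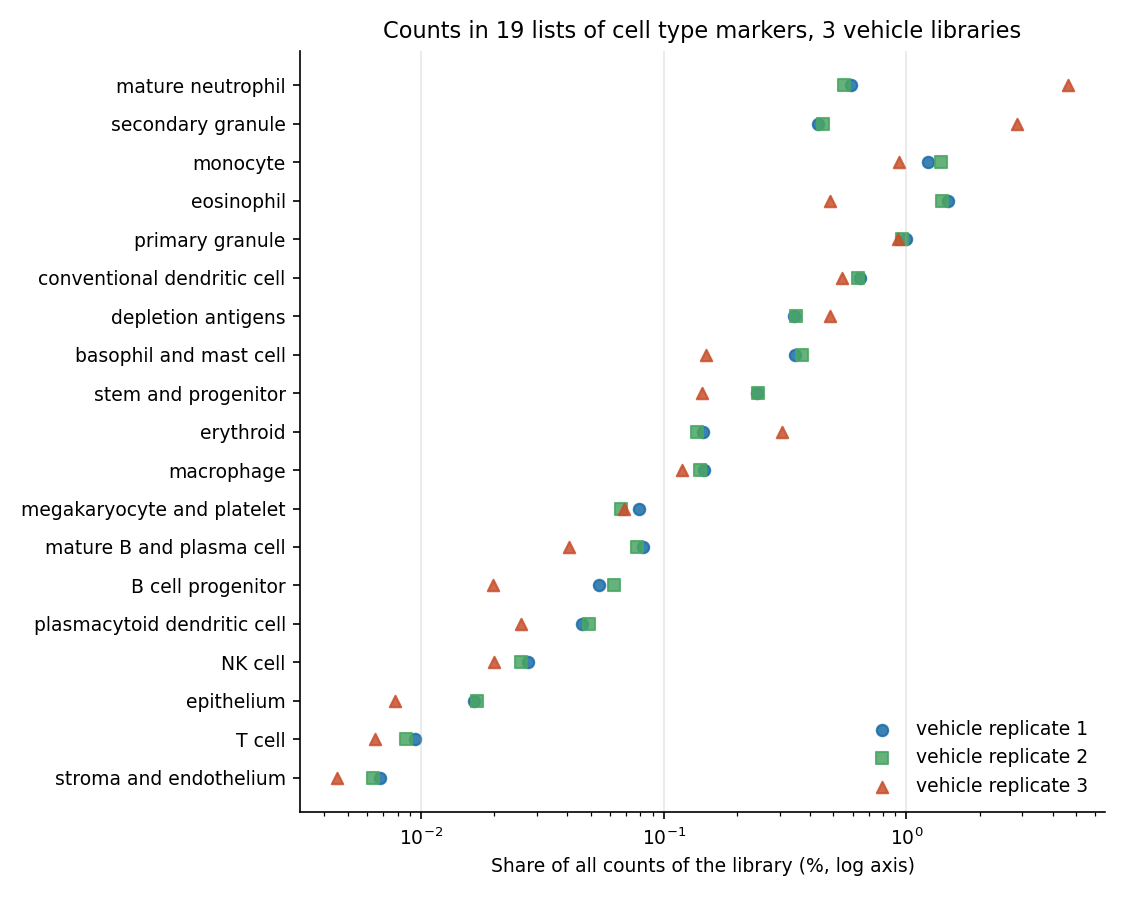
Share of each library's counts in 19 marker lists, in percent on a log axis, with 1 symbol per vehicle library and lists ordered by mean share. Replicates 1 and 2 overlie each other in most lists, while replicate 3 lies to the right for the mature neutrophil, secondary granule and erythroid lists and to the left for the eosinophil, basophil and mast cell, and B cell progenitor lists.

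Stem and progenitor genes, which the depletion is meant to leave, were present in all 3 libraries. All 20 members had a mean of at least 1 CPM. Kit, the receptor of stem cell factor, had 309, 264 and 158 CPM, and Cd34, a surface sialomucin of progenitors whose exons overlap Gm16897, had 239, 240.0 and 89.9 CPM. Myb, a transcription factor of immature cells, had 241, 210.0 and 217 CPM. Cd48, which is carried by progenitors and many mature leukocytes but not by the most primitive stem cells, was the highest of the list per length at 618, 708 and 309 TPM.

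Of the 20 stem and progenitor genes, 5 were at least 2-fold lower in replicate 3 than in both other libraries, against 2.88% of all genes. They were Cd34, Flt3, Gata2, Hlf and Adgrg1. Flt3, the cytokine receptor of multipotent and lymphoid progenitors, had 172, 169.9 and 70.0 CPM, and Gata2, a transcription factor of stem cells and of the mast cell and basophil lines, had 178, 180.4 and 81.7 CPM. The list's median difference in log2 CPM was -0.67 for replicate 3 minus 1, -0.59 for 3 minus 2 and -0.09 for 2 minus 1. With plain library totals in place of TMM, 7 of the 20 were that far below.

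Primary granule genes, which mark promyelocytes, were abundant in all 3 libraries. Elane, neutrophil elastase, had 1261, 1217 and 1372 CPM, Prtn3, proteinase 3 of the same granule, had 988, 1022 and 1107 CPM, and Ctsg, cathepsin G, had 856, 827 and 839 CPM. These proteases of the promyelocyte were thus close in all 3 libraries. Fcnb, ficolin B, had 366, 371 and 543 CPM and Ms4a3, a membrane protein of granulocyte and monocyte progenitors, had 340.5, 323 and 547 CPM, both highest in replicate 3. None of the 9 members stood 2-fold apart in any library. The list's share of counts was 0.995%, 0.959% and 0.923%, and Mpo, lowest in replicate 3, made up most of it. Replicate 3 was above replicate 1 in 7 of 9 members and above replicate 2 in 8 of 9. The median difference was 0.17 log2 units for replicate 3 minus 1, 0.44 for 3 minus 2 and -0.05 for 2 minus 1.

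Secondary granule genes differed widely between the libraries. The list took 0.432%, 0.455% and 2.86% of counts, and 12 of its 13 members were at least 2-fold above both other libraries in replicate 3, against 6.83% of all genes. Ngp, neutrophilic granule protein, had 1039, 1086 and 10453 CPM. Camp, the cathelicidin antimicrobial peptide, had 467, 433 and 3876 CPM. Ltf, the iron-binding lactoferrin, had 157, 134 and 3651 CPM and the largest ratio of the list, 23.3-fold over replicate 1. Lcn2, which captures bacterial siderophores, had 239, 220.0 and 2291 CPM, and Chil3, a chitinase-like protein, had 739.8, 677 and 3513 CPM. The exception was Hp, haptoglobin, with 749, 763 and 1050.5 CPM. The list's median difference was 2.56 log2 units for replicate 3 minus 1, 2.54 for 3 minus 2 and 0.02 for 2 minus 1.

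Genes of the mature neutrophil were likewise highest in replicate 3. Their share was 0.593%, 0.554% and 4.64%, and 12 of 14 were at least 2-fold higher in replicate 3 than in both others. S100a9 alone made up 54.6% of the list in replicate 3, with 2471, 2280.5 and 26321 CPM in the 3 libraries. Retnlg, a resistin-like protein of neutrophils, had 232, 166 and 2528 CPM, and Mmp9, the gelatinase of the tertiary granules, had 141, 93.5 and 1447 CPM. Slfn4, a Schlafen family gene of myeloid cells, was near 0 in replicates 1 and 2 and clearly present in replicate 3, with 2.14, 1.84 and 242 CPM. Clec4d, a C-type lectin receptor, with 273, 229.7 and 319 CPM, was among the 2 members below the 2-fold mark. The list's median difference was 2.48 log2 units for replicate 3 minus 1, 2.97 for 3 minus 2 and -0.26 for 2 minus 1.

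No primary granule gene was 2-fold apart, while 12 of 13 secondary granule and 12 of 14 mature neutrophil genes were highest in replicate 3 by that margin. Receptors of the mature cell were also highest there. Cxcr2, the chemokine receptor that draws neutrophils out of marrow, had 137, 108 and 686 CPM, and Csf3r, the receptor of G-CSF, had 277, 264 and 1004 CPM. Cxcr4, which retains cells in marrow, had 503, 518 and 621 CPM, with no library 2-fold apart. Of the 9 members with at least 1 CPM in the list that holds both chemokine receptors and the cell-surface proteoglycans, 4 stood apart. Cxcr2 and the glypican Gpc2 (1.602, 2.27 and 6.85 CPM) were above in replicate 3, the syndecan Sdc1 was below there (with plain library totals, 2 members were), and Sdc2 (1.23, 2.85 and 4.05 CPM) was below in replicate 1. The labels give no variable that separates replicate 3 from the others.

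The bases upstream of the 4 genes are shown that were, among the 20 highest by mean TPM, at least 2-fold above both other libraries in replicate 3. All 4 were found by symbol in the RefSeq table. Each sequence is the 250 bases before the RefSeq transcription start on GRCm38.p6, 5′ to 3′ in the direction of transcription. Capitals mark matches on either strand to motifs of a few factor families. The C/EBP motif was spelled TTGCNNAA. The motif of ETS factors, among them PU.1, was spelled GGAAGT. For GATA factors the letters searched were AGATAA. The box bound by TBP was searched as TATAAA. None of the matches overlap. S100a8 is at chr3:90668821-90669070 on the plus strand, S100a9 at chr3:90695722-90695971 on the minus strand, Ngp at chr9:110419558-110419807 on the plus strand and Camp at chr9:109849457-109849706 on the minus strand.
S100a8: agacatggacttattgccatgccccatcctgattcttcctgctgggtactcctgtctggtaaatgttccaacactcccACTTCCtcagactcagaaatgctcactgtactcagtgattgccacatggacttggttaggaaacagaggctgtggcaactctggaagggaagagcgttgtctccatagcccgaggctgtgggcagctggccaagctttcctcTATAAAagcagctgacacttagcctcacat
S100a9: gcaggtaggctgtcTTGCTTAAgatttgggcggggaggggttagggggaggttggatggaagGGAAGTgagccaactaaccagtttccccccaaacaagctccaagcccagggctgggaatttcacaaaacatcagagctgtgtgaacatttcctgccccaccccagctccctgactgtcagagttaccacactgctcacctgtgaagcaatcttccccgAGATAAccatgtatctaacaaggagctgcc
Ngp: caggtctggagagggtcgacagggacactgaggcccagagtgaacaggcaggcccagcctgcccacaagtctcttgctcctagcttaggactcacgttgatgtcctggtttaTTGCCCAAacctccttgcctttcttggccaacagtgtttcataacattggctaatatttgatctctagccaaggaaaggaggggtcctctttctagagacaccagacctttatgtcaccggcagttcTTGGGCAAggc
Camp: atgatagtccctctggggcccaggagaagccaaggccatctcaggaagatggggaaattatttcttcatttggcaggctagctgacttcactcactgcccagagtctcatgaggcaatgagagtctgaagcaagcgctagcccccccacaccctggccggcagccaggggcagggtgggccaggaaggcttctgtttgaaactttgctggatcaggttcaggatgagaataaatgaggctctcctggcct
S100a8 held a TATA match that began 30 bases before the start and an ETS match on the opposite strand at 172 bases. S100a9 held a GATA match at 30 bases, an ETS match at 188 and a C/EBP match at 236. Ngp held 2 C/EBP matches, at 138 bases and, on the opposite strand, at 11 bases. The window of Camp held none of the 4 motifs. Over all 27025 promoter windows of this length in the RefSeq table, a C/EBP match was present in 9.55%, an ETS match in 19.99%, a GATA match in 10.3% and a TATA match in 12.97%. A match describes these letters only and shows no binding.

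Eosinophil genes were high in replicates 1 and 2 and lower in replicate 3, with 1.49%, 1.40% and 0.484% of counts. Prg2, with 10134, 8991 and 3147 CPM, made up 68.0%, 66.8% and 62.6% of the list. Epx, eosinophil peroxidase, had 2537, 2210.5 and 678 CPM and Prg3, a second major basic protein, had 613, 569 and 207 CPM. Prg2, Epx and Prg3 were the 3 of 10 members at least 2-fold below both others in replicate 3. Ear1, a ribonuclease of eosinophil granules, had 718, 774 and 369 CPM and just missed that mark against replicate 1. The Ear genes are near-identical copies, and Ear6 and Ear2 share exons with other Ear genes, so their levels are uncertain. Alox15, a lipoxygenase, had 385, 382 and 285 CPM. The surface receptors were closer between libraries than Prg2, Epx and Prg3. Ccr3, the eotaxin receptor, had 94.3, 85.7 and 78.6 CPM and Siglecf, a lectin of eosinophils, had 79.8, 70.1 and 77.6 CPM.

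Basophil genes were also lowest in replicate 3, with 0.348%, 0.373% and 0.149% of counts. Mcpt8, a protease that marks mouse basophils, had 1194, 1198 and 464 CPM. Prss34, another basophil protease, had 1229, 1253 and 371 CPM. Cpa3, carboxypeptidase A of basophils and mast cells, had 380.2, 409 and 149 CPM, and Fcer1a, a chain of the high-affinity IgE receptor, had 127, 146 and 56.5 CPM. Of the 8 members with at least 1 CPM, 6 were at least 2-fold lower in replicate 3 than in both others, and only Hdc, histidine decarboxylase, was highest there, with 209, 219 and 347 CPM. The proteases of connective tissue mast cells were at or near 0. Mcpt4 had 0 counts in all 3 libraries, which allows up to 0.0616, 0.0756 and 0.0894 CPM, and Cma1 had 0.205, 0.353 and 0.0298 CPM.

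Monocyte genes made up 1.23%, 1.38% and 0.932% of counts. Ly6c2, the antigen of inflammatory monocytes, had 1719.7, 1726 and 1894 CPM, and Ccr2, the chemokine receptor that lets them leave marrow, had 1550.4, 1638 and 1343 CPM. F13a1, coagulation factor XIII, had 1578, 1857 and 876 CPM, and S100a4 had 508, 623 and 457 CPM. None of these was 2-fold apart in 1 library. The 2 of 12 members at least 2-fold below both others in replicate 3 were Irf8, the transcription factor of monocyte and dendritic cell progenitors, with 508, 543 and 234 CPM, and Cx3cr1, a receptor of patrolling monocytes, with 117, 109.9 and 25.8 CPM.

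Markers of resident macrophages were uneven. Adgre1, which encodes F4/80 and is also carried by monocytes and eosinophils, had 575, 599 and 343 CPM. Vcam1, an adhesion molecule of macrophages and stroma, had 339.8, 271 and 308 CPM, and Hmox1, haem oxygenase, had 211, 192 and 111 CPM. Slc40a1, the iron exporter ferroportin, had 138, 108 and 278 CPM and was the 1 member at least 2-fold above in replicate 3, a call lost with plain library totals. Cd163 (14.7, 13.1 and 4.47 CPM) and Spic (5.12, 3.22 and 0.804 CPM), of macrophages that recycle haem, were below there, and Timd4 (1.97, 0.705 and 3.22 CPM) was below in replicate 2. The list's share was 0.147%, 0.141% and 0.119% of counts, of which Adgre1 made up 39.0%, 44.2% and 27.7%. Of the 14 members with at least 1 CPM, replicate 3 was above replicate 1 in 8 and above replicate 2 in 9. The median difference was 0.28 log2 units for replicate 3 minus 1, 0.33 for 3 minus 2 and -0.34 for 2 minus 1.

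Dendritic cell genes were led by those of MHC class II, which B cells and monocytes also express. H2-Ab1 had 1226, 1077 and 1041 CPM and H2-Eb1 had 924, 765 and 728 CPM. Cd74 had 3645, 3466 and 3451 CPM and made up 56.5%, 57.3% and 61.5% of the list. Cd209a (257, 319 and 86.5 CPM) and Clec10a (99.4, 114 and 48.3 CPM), lectins of the monocyte-related dendritic cells, were the 2 of 12 members at least 2-fold below in replicate 3. Xcr1 and Zbtb46, 2 markers of conventional dendritic cells, were low, with 5.26, 3.65 and 3.87 CPM and 3.06, 2.52 and 1.58 CPM. They do not stand for the whole list, whose 12 members had a median level of 33.5 TPM. Plasmacytoid markers took 0.0461%, 0.0491% and 0.0258%. Siglech, their surface lectin, had 62.4, 62.9 and 30.3 CPM and Spib, a transcription factor they share with B cells, had 119, 129 and 38.2 CPM. These 2 of 8 members were at least 2-fold below in replicate 3.

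Erythroid genes were higher in replicate 3, at 0.144%, 0.138% and 0.307% of counts, and 10 of 16 members were at least 2-fold above both others there. Alas2, the first enzyme of haem synthesis in red cells, had 567, 522 and 1359 CPM, with exons that overlap Mir3620. Slc4a1, the anion exchanger band 3, had 198, 178 and 586 CPM, and Car2, carbonic anhydrase 2, had 152, 145 and 337 CPM. Tfrc, the transferrin receptor, had 234, 181 and 307 CPM and was not 2-fold apart, and Gata1, the transcription factor of the line, had 30.9, 27.9 and 29.9 CPM. The list's median difference was 1.33 log2 units for replicate 3 minus 1, 1.39 for 3 minus 2 and -0.18 for 2 minus 1.

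The adult haemoglobin genes Hba-a1, Hba-a2, Hbb-bs and Hbb-bt had 0 counts in all 3 libraries. Their exons overlap in the annotation with those of Hba-a2, Hba-a1, Hbb-b1 and Hbb-b2, and reads that lie in 2 genes were not counted. The same holds for Rpl26, which shares exons with Gm15772, and H2-Q7, which shares exons with H2-Q9, both also at 0. No absence of globin RNA can therefore be read from these zeros.

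Megakaryocyte and platelet genes held 0.0788%, 0.0666% and 0.0686% of counts, and no member stood 2-fold apart from both others in any library. Replicate 2 was below replicate 1 in 14 of 14 members. The median difference was 0.17 log2 units for replicate 3 minus 1, 0.34 for 3 minus 2 and -0.28 for 2 minus 1. Pf4, platelet factor 4, had 95.9, 77.1 and 91.4 CPM and Ppbp, another platelet chemokine, had 60.4, 41.6 and 86.1 CPM. Itga2b had 206, 175 and 167 CPM and Itgb3 had 220.2, 175 and 175 CPM. These encode the chains of the platelet fibrinogen receptor, and Itga2b is also made by progenitors.

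Genes of B cell progenitors took 0.0541%, 0.0624% and 0.0198%, and 10 of 13 members were at least 2-fold lower in replicate 3 than in both others, against 2.88% of all genes. Cd79b, a signalling chain of the B cell receptor, had 116, 133 and 44.2 CPM, and Cd79a, its partner, had 48.95, 53.3 and 14.9 CPM. Vpreb3, of the pre-B cell, had 38.9, 50.1 and 11.8 CPM. Rag1, which cuts antigen receptor genes, had 84.0, 95.04 and 15.8 CPM, and Dntt, the terminal transferase that adds bases to their joints, had 49.8, 51.7 and 20.4 CPM. Il7r, the IL-7 receptor, had 95.5, 88.3 and 44.5 CPM. The list's median difference was -1.38 log2 units for replicate 3 minus 1, -1.54 for 3 minus 2 and 0.20 for 2 minus 1.

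Later B lineage genes were also lowest in replicate 3. Jchain, the joining chain of secreted IgM and IgA, had 711, 627 and 377 CPM and made up 86.5%, 84.1% and 88.9% of its list. Ms4a1, which encodes CD20, had 26.7, 31.1 and 11.7 CPM. Sdc1, a proteoglycan of plasma cells, had 30.1, 27.4 and 7.98 CPM. Fcer2a and Cd72 joined Ms4a1 and Sdc1 as the 4 of 6 members at least 2-fold below in replicate 3, and Cd72 shares exons with Tesk1.

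T cell genes were scarce in all 3 libraries, with 0.00942%, 0.00871% and 0.00649% of counts. Cd3d, a chain of the T cell receptor complex, had 6.18, 5.29 and 11.2 CPM, and Cd8a had 16.1, 14.8 and 15.4 CPM. Cd28, a costimulatory receptor, had 28.4, 24.4 and 10.3 CPM. Cd28 and Cd4 were the 2 of 13 members at least 2-fold below in replicate 3, and with DESeq2 size factors 1 of 13 was. The NK list, at 0.0276%, 0.0259% and 0.0200%, was mostly Nkg7 (149.7, 138 and 151 CPM), which is made by cytotoxic lymphocytes and by some myeloid cells. The receptor Klrd1 had 14.1, 22.2 and 7.45 CPM, and the protease Gzmb had 30.2, 27.1 and 9.35 CPM. Gzmb, Klrb1c and Klrg1 were the 3 of 12 at least 2-fold below in replicate 3, and Klrg1 was also that far above in replicate 2.

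Cells from outside the blood lines left little trace. The stroma and endothelium list took 0.00677%, 0.00632% and 0.00450% of counts. Only 5 of its 17 members reached a mean of 1 CPM: Pdgfrb, Tie1, Kdr, Cdh5 and Col1a1. Pdgfrb made up 50.4%, 54.2% and 29.4% of the list. Cxcl12, the retention factor of marrow stroma, had 0.678, 0.605 and 0.447 CPM, and Col1a1 had 0.411, 0.428 and 5.30 CPM. Col1a1 was the 1 of the 5 members at least 2-fold above both others in replicate 3, and 1 member was that far below. Col1a1 reached a mean of 1 CPM through replicate 3 alone, so its place among the 5 rests on that library. Lung and skin genes Sftpc, Bpifa1, Scgb3a2 and Krt5 had 0 counts in every library. In the epithelial list the leader was Cdh1, E-cadherin, which is also made by some blood progenitors, with 139, 136 and 64.9 CPM. Cdh1 and Krt18 were at least 2-fold below in replicate 3.

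The antigens against which lineage antibodies are commonly directed were not absent. Itgam, which encodes CD11b of neutrophils and monocytes, had 689.6, 658 and 1513 CPM, and Ptprc, whose B220 form is the usual target, had 929, 864 and 1347 CPM over all forms. Cd5, of T cells, had 1.36, 1.21 and 1.43 CPM. Itgam was among the 2 of 6 members at least 2-fold above both others in replicate 3. Ly6g, the other target of antibodies to Gr-1, was not analysed here. The antigens of the kit are not given in the labels, and this list follows common practice.

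**Figure D4:**
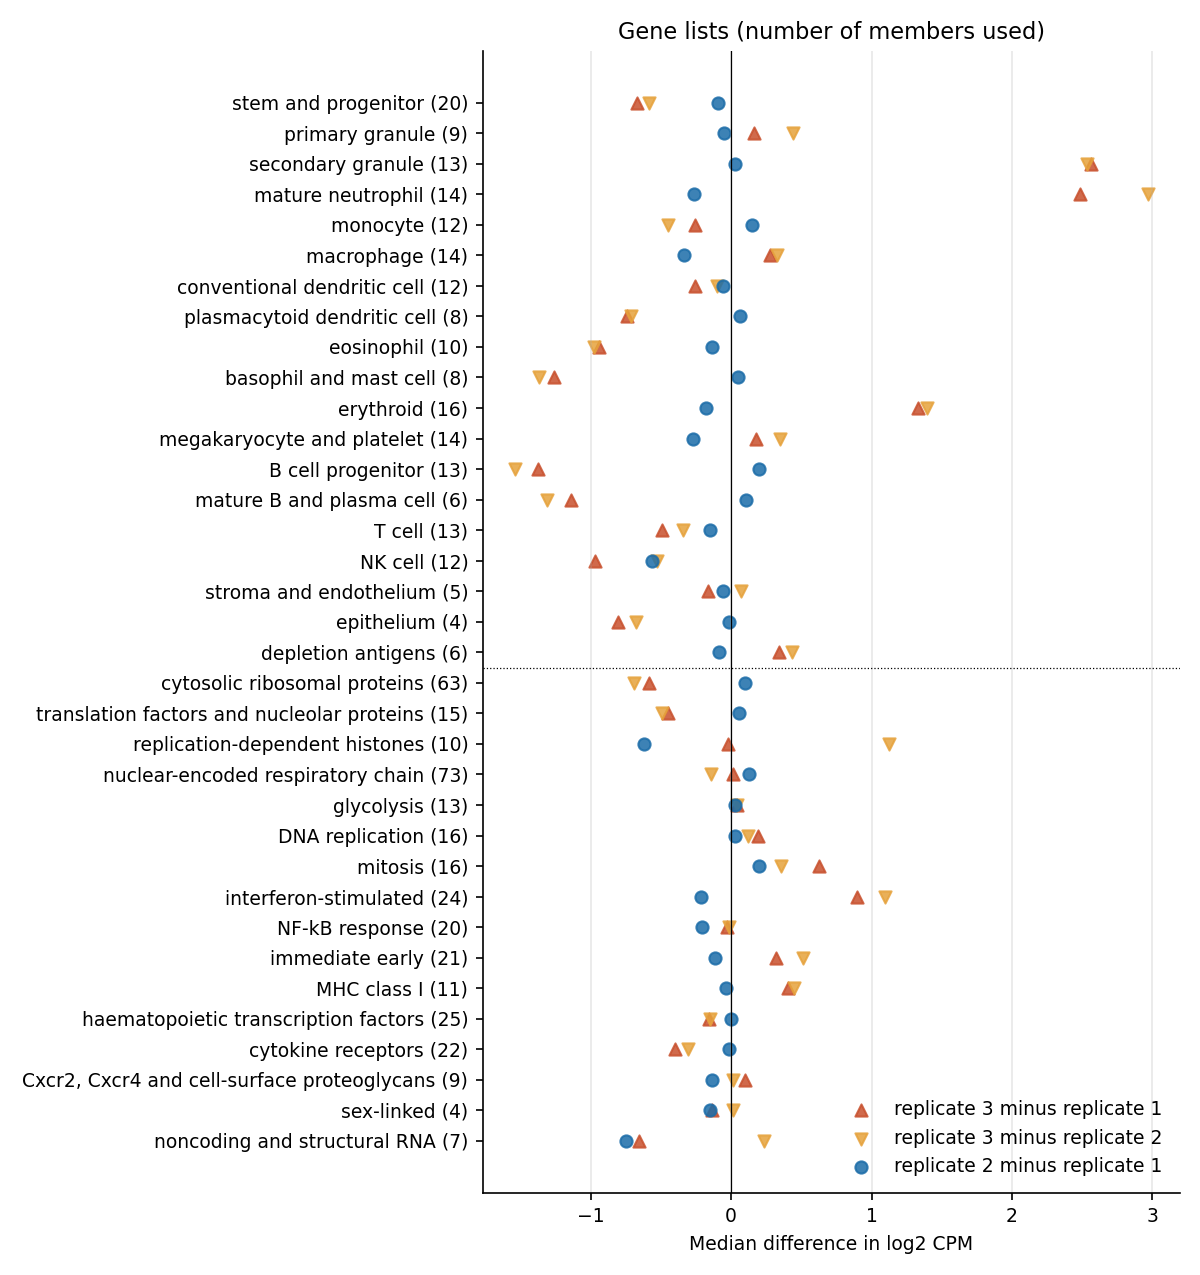
Median difference in log2 CPM for each gene list, over members whose mean reached 1 CPM (their number in parentheses), with cell type lists above the dotted line and functional lists below it. Symbols show replicate 3 minus 1, 3 minus 2 and 2 minus 1, and the differences between replicates 2 and 1 are the smallest in most lists.

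Genes of translation were lower in replicate 3. Cytosolic ribosomal proteins took 1.96%, 2.31% and 1.25% of counts, with a median difference of -0.59 log2 units for replicate 3 minus 1 and -0.69 for 3 minus 2. The shift was spread over the list: replicate 3 was below replicate 1 in 55 of 63 members and below replicate 2 in 56, while 1 member, Rps2, was at least 2-fold below both. The list of translation factors and nucleolar proteins took 1.35%, 1.47% and 0.859%. Rpl4, a protein of the large subunit, had 2201, 2304 and 1454 CPM. Eef1a1, the factor that brings aminoacyl-tRNA to the ribosome, had 4333, 4701 and 2586 CPM, and Eef2, which moves the ribosome along, had 4120.0, 4322 and 2039 CPM and was the 1 of 15 translation factors at least 2-fold below both others. With DESeq2 size factors 0 of the 15 were that far below, and with plain library totals 2 were. Of the ribosomal proteins 2 were with plain totals. Many ribosomal protein genes have near-identical copies elsewhere in the genome, and 15 of the 78 did not reach 1 CPM.

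Genes of cell division were present in all libraries. DNA replication genes held 0.181%, 0.193% and 0.192% of counts, with no member 2-fold apart. Mcm6, of the replicative helicase, had 256, 247 and 242 CPM and Pcna, the sliding clamp, had 112, 125 and 126 CPM. Mitosis genes held 0.143%, 0.170% and 0.252%. Top2a, topoisomerase II alpha, had 393, 423 and 622 CPM, Ube2c had 85.5, 99.1 and 151 CPM and Cdk1 had 106, 116 and 141 CPM. The 3 of 16 members at least 2-fold above in replicate 3 were Mki67 (119, 133 and 567 CPM), Cenpe (23.8, 25.4 and 85.6 CPM) and Cenpf (28.5, 30.5 and 70.9 CPM). Replicate 3 was above replicate 1 in 16 of 16 and above replicate 2 in 15 of 16.

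Interferon-stimulated genes were higher in replicate 3, with 0.103%, 0.0989% and 0.221% of counts, and 11 of 24 were at least 2-fold above both others there. Rsad2, the antiviral viperin, had 70.1, 66.1 and 217 CPM, and Isg15, a ubiquitin-like modifier, had 17.8, 16.4 and 67.2 CPM. Gbp2, a guanylate-binding protein whose exons overlap Mir6381, had 52.0, 67.7 and 219.7 CPM. In contrast, Ifi44 was highest in replicate 1, with 55.9, 21.1 and 29.4 CPM, and so was Cxcl10, an interferon-induced chemokine outside the list, with 8.87, 4.66 and 4.05 CPM. The median difference was 0.90 log2 units for replicate 3 minus 1 and 1.09 for 3 minus 2. Secondary granule and mature neutrophil genes were higher in the same library, and their part in this difference was not tested.

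Inflammatory genes were not uniformly higher in that library. The NF-kB response list took 0.138%, 0.128% and 0.131%, with medians of -0.03 and -0.02 log2 units for replicate 3 minus 1 and 3 minus 2. Its 4 of 20 members at least 2-fold above in replicate 3 were Il1b (38.0, 27.1 and 177 CPM), Il1a, Nfkbiz and Ptgs2, all known from activated myeloid cells. Nfkb1, a subunit of the factor itself, had 326, 320.2 and 256 CPM, and Ccl3, a chemokine, had 52.0, 55.0 and 54.6 CPM. Of 21 immediate early genes, Dusp1 and Ppp1r15a were that far above and Dusp2 below. The immediate early list took 0.179%, 0.183% and 0.280% of counts. Replicate 3 was above replicate 1 in 15 of its 21 members and above replicate 2 in 15. The median difference was 0.32 log2 units for replicate 3 minus 1 and 0.51 for 3 minus 2. Zfp36, which destabilises cytokine mRNAs, had 226, 218 and 384 CPM, and Ppp1r15a, with exons overlapping Tulp2, had 184, 169.8 and 713 CPM.

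Genes of antigen presentation by MHC class I took 0.562%, 0.586% and 0.712% of counts. B2m, the common light chain, had 2495, 2578 and 3222 CPM and H2-K1 had 1132, 1049 and 1387 CPM. Replicate 3 was above both others in 11 of 11 members with at least 1 CPM, and H2-Q4 and Nlrc5 passed 2-fold. Few genes of energy metabolism stood apart. Glycolysis genes took 0.372%, 0.407% and 0.386%, and nuclear-encoded respiratory chain genes 0.878%, 0.978% and 0.773%. Aldoa had 934, 997 and 952 CPM and Atp5b had 975, 962 and 801 CPM. One respiratory gene of 73, Cox6a2, was at least 2-fold below in replicate 3, and 1 glycolytic gene of 13, Gapdh, was above, a call lost with plain library totals. Gapdh had only 1.66, 1.31 and 3.49 CPM, a level for a gene with many near-identical copies that is uncertain.

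Most transcription factors of blood formation stayed within 2-fold. Spi1, which encodes PU.1 of the myeloid lines, had 367, 371 and 399.9 CPM, Ikzf1 had 485, 489.6 and 440.2 CPM and Nfe2, of the erythroid and megakaryocytic lines, had 238, 247 and 399 CPM. Cebpe, the factor of secondary granule genes, had 87.3, 85.8 and 156 CPM and was highest in replicate 3. Irf8, Gata2, Ebf1 and Pax5 were the 4 of 25 at least 2-fold below there. Among 22 cytokine receptors, Csf3r and Epor were at least 2-fold above in replicate 3 and Flt3 and Il1rl1 below, where plain library totals gave 3 receptors below. Ifngr1 had 610.1, 652 and 532 CPM, Csf1r, the receptor of the macrophage growth factor, had 1158, 1148 and 723 CPM, and Tnfrsf1b had 975, 948 and 666 CPM.

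Replicate 1 stood apart in another set of transcripts. Rn45s, the precursor of ribosomal RNA, took 4.89%, 0.273% and 0.297% of counts in replicates 1, 2 and 3, and protein-coding genes took 94.5%, 99.3% and 99.1%. Rmrp and Rpph1, the RNAs of the RNase MRP and RNase P enzymes, had 54.5, 3.07 and 2.56 CPM and 40.8, 2.14 and 2.44 CPM. All 3 are RNAs without the poly(A) tail for which the kit selects. Whether that selection differed between the libraries was not tested. Lars2, a mitochondrial leucyl-tRNA synthetase, had 3077, 791 and 776 CPM, and Mir6236 had 1917, 615 and 579.9 CPM. Whether the reads counted for Lars2 and Mir6236 stem from transcripts of these genes was not tested. Among the replication-dependent histones, whose mRNAs mostly lack that tail as well, Hist1h1b, Hist1h1d, Hist1h1e and Hist2h2bb were the 4 of 10 members at least 2-fold above both others in replicate 1, against 0.140% of all genes. Their levels were low, with 4.33, 0.378 and 1.67 CPM for Hist1h1e. The list held 68 genes, of which 10 had a mean of at least 1 CPM and 13 had 0 counts in every library. Replicate 2 was at least 2-fold below both others in 4 of the 10 members, against 0.272% of all genes, and in 3 with plain library totals. Hist1h1e was in both sets of 4. Hist1h1c (21.1, 20.3 and 48.6 CPM), Hist1h2bc and Hist1h2be were instead at least 2-fold above in replicate 3. Malat1 (103, 61.4 and 508 CPM) and Neat1 (56.6, 47.5 and 569 CPM), long noncoding RNAs of the nucleus, were also highest there.

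Mir6236 was the fifth gene by mean TPM, and its sequence is shown because its place there rests on a short annotated exon. The mature microRNA in RefSeq lies at chr9:110281353-110281371 on the plus strand of GRCm38.p6, with capitals for the seed, bases 2 to 8.
mmu-miR-6236: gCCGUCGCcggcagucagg
The counted exon is 123 bases long, and the mature form is 19 bases. Counts over that exon cannot tell the mature form from longer RNA.

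Among genes averaging 5 CPM or more, the 10 furthest above and the 10 furthest below both other libraries were taken for replicate 3. Above in it, beside Slfn4 and Ltf, were Stfa1 (1.01, 1.01 and 17.5 CPM), Stfa2l1 and Gm5483, of the stefin cluster of cysteine protease inhibitors whose copies are alike, Orm1, an acute phase protein (1.17, 1.21 and 19.5 CPM), and Pde1b, a phosphodiesterase (6.39, 6.35 and 89.1 CPM). Ager, Gabbr1 and 1700047M11Rik completed the 10. All of these but Ltf and Pde1b were under 5 CPM in replicates 1 and 2, and so met the cut through replicate 3 alone. Below in it were Ednrb, an endothelin receptor (8.73, 6.70 and 0.864 CPM), Id3, an inhibitor of E proteins (58.1, 48.2 and 11.1 CPM), Rag1, Cx3cr1, Hal, Gfra1, Abca6, Tnfrsf19, Cpm and Chst3. These 10 were all at least 3.62-fold lower in replicate 3 than in replicate 1.

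Replicates 1 and 2 differed from each other in few genes. Rnase12, a ribonuclease A family member, had 0.760, 16.6 and 5.60 CPM and was far lowest in replicate 1. Capza1, which caps actin filaments, had 16.4, 47.5 and 46.0 CPM, and Ncoa4, the receptor for ferritin breakdown, had 4.77, 11.96 and 10.7 CPM. Replicate 2 was highest in Rps3a1 (26.6, 97.8 and 43.6 CPM), Klrb1b (10.5, 22.3 and 10.8 CPM) and Rplp0 (662, 1150.0 and 505 CPM), of which both ribosomal protein genes are uncertain because of their near-identical copies. It was lowest in Fpr2 (68.2, 37.1 and 329 CPM) and Fpr1 (20.03, 11.6 and 186 CPM), receptors for bacterial formyl peptides, for which replicate 3 was by far the highest. Asprv1 (19.2, 10.0 and 99.8 CPM) and Hcar2 (18.5, 9.80 and 61.7 CPM) had that order as well. Counting alone did not account for the spread between replicates 1 and 2, whose squared differences were 3.19 times the counting variance in the median gene, against 25.9 for replicates 3 and 1 and 23.8 for 3 and 2.

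The common biological coefficient of variation over the 3 libraries was 29.1%, and 8.82% between replicates 1 and 2 alone. The coefficient of variation of single genes had a median of 14.6%, where counting error gives 2.75%. It was under 10% in 33.9% of genes and under 50% in 92.0%. Genes of 1 to 10 CPM had a median of 24.5%, those of 10 to 100 CPM 12.6%, those of 100 to 1000 CPM 11.9% and the 78 genes above that 15.96%. The spread therefore did not keep shrinking with depth, and the most abundant genes were again more variable.

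**Figure D5:**
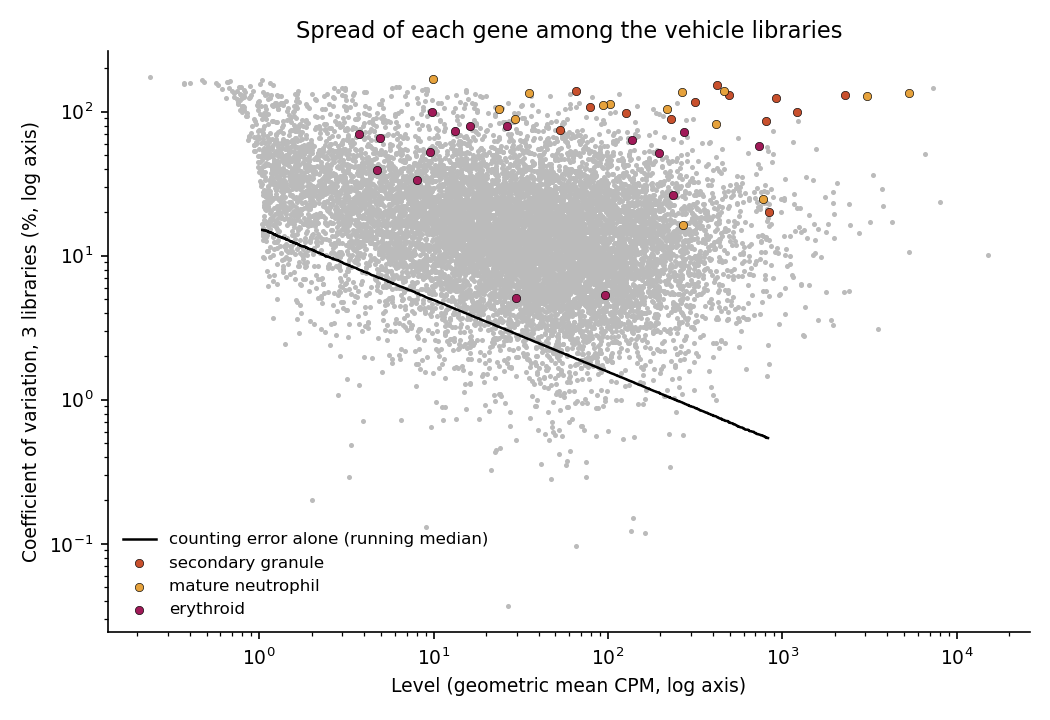
Coefficient of variation among the 3 vehicle libraries (percent, log axis) against level (geometric mean CPM, log axis) for each gene, with members of 3 lists in colour. The black line is the running median of the counting error, and nearly all secondary granule and mature neutrophil genes lie far above it.

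Among the steadiest genes of at least 50 CPM were Txndc9 (65.8, 65.9 and 66.0 CPM), Crlf3 (163, 163 and 163 CPM), Hvcn1 and Hnrnph2. Their observed spread was below what counting error gives, but they were picked for a small spread among 4576 genes. The most variable at that level were Slfn4, Ltf, Rn45s, Itgb2l, Retnlg, Mmp9, Fpr1, S100a9, Neat1 and Slfn1. Of these 10, Rn45s was highest in replicate 1 and the other 9 in replicate 3. Slfn1 had 29.99, 25.5 and 293 CPM and Itgb2l, an integrin chain of maturing neutrophils, had 23.8, 32.0 and 374 CPM.

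No library stood apart in the sex-linked genes. The Y-linked genes Ddx3y (69.1, 60.8 and 65.5 CPM), Eif2s3y (75.4, 77.5 and 102 CPM), Kdm5d (28.6, 26.4 and 25.1 CPM) and Uty (33.7, 29.4 and 26.3 CPM) were present in all 3, and no library was 2-fold apart in any of them. Xist, the RNA that coats the inactive X chromosome of female cells, had 1, 5 and 0 counts, over exons that overlap Tsix.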

How the data were processed

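Read counts per gene were deposited by the authors in 1 table of 24421 genes with the exon length of each gene. Per the file headers, the counter was featureCounts 1.6.1, run on mm10 alignments of lane 6 and summing the exons of a gene, with no option for strand, overlapping genes or multiply aligned reads. A read lying in exons of 2 genes was thus left out, and because strand was not used, overlapping and antisense genes are uncertain, as are genes with near-identical copies. The deposited exon length was used for TPM. STAR, Trim Galore, edgeR and HTSeq are listed per the submitters' processing notes, whereas featureCounts appears in the header alone. No row is mitochondrially encoded.

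Libraries were scaled by TMM in edgeR 4.0.16 under R 4.3.3, which also gave the common dispersion, and DESeq2 1.42.0 gave the size factors of an alternative. Log2 CPM used a prior count of 2. Tables were made in Python 3.11.15 with pandas 2.3.3. Genes whose mean reached 1 CPM were examined, and a library stood apart in a gene when it was at least 2-fold above or below both others. A gene could reach that mean through 1 library alone. No test was run, since the 3 libraries form 1 group. Of the 3 depths, the lowest was 34875736 counts, and a count of 0 was read as up to 3 counts. Intervals are Wilson 95% and cover counting error only, as the reads carry no molecular identifiers.

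The 35 gene lists and the libraries were chosen with earlier results of these data known. Genes named are Dek, the 20 highest by mean CPM and by mean TPM, up to 6 of each list by TPM and those at 0 counts, the 10 furthest above and below per library at a mean of at least 5 CPM, the 10 smallest and largest coefficients of variation at a mean of at least 50 CPM, and sex-linked genes. A few genes that fall under this rule are not reported here. List members named beyond these were chosen after their values were seen. Of 690 fixed symbols, 6 were not analysed here. Sequences come from RefSeq, GRCm38.p6, and biotypes matched 24313 of the 24421 genes. Alternatives were plain totals, DESeq2 size factors, other filters, another prior count, leaving out Rn45s or overlapping genes, and leaving out each library.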

Additional observations from a re-analysis of the deposited data

How the results depend on the processing

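Of 150 alternatives to 27 main values, 125 moved a share by no more than 1 SD of the 3 libraries, a count by no more than 1.5 times or the coefficient of variation by no more than 5%, and so did 75 of 80 for 16 further shares of lists. Because that SD is wide where 1 library departs, some large moves fall within it. Without replicate 3 the mean share fell from 1.93% to 0.574% for mature neutrophil genes and from 1.25% to 0.443% for secondary granule genes. The noncoding RNA share, 1.88%, was 0.0659% without Rn45s and 0.361% without replicate 1. The erythroid share, 0.196%, was 0.116% without Alas2 and other members with overlapping exons. The common biological coefficient of variation was 32.3% with no filter beyond 1 count, 25.7% at a mean of at least 5 CPM, and 8.82% to 34.3% with each library left out, the lowest without replicate 3. With no filter, genes at least 2-fold above and below both others numbered 315 and 176 for replicate 1, 235 and 367 for replicate 2, and 1693 and 728 for replicate 3. At a mean of at least 5 CPM they numbered 6 and 3, 3 and 1, and 538 and 193. With each other library left out, so that 1 remained to compare with, the ranges were 45 to 485 above and 27 to 983 below for replicate 1, and 27 to 437 above and 45 to 1071 below for replicate 2. For replicate 3 they were 983 to 1071 above and 437 to 485 below. The dendritic cell share, a mean of 0.605%, was 0.252% without Cd74. Splits of genes above and below in replicate 3 were 747 and 430 with plain totals and 853 and 335 with DESeq2 size factors, against 829 and 350. Only 3 libraries limit the precision. No paired analysis was possible because no comparison between groups was made.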
